A study of Trametes pubescens and Hermanssonia centrifuga with 16 samples.

Results

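In the white-rot fungus Trametes pubescens (strain FBCC735), 7 of 14451 gene models separated cultures at 25 °C from cultures at 15 °C on wheat straw and on spruce alike: 6 were higher at 25 °C and 1 was higher at 15 °C. A gene belonged to this set when its lowest level among the 4 libraries of one temperature was at least 5 CPM (read counts divided by the library's total and by its TMM factor, the trimmed mean of M-values) and at least 1.3 times its highest level among the 4 libraries of the other. This quotient is called the separation ratio below. Genes whose 2 spruce libraries at 15 °C both lay at least 1.5-fold above, or both at least 1.5-fold below, the other 6 were left out, which removed 1 further gene. At least 5 CPM in all 4 libraries of one temperature was reached by 9048 gene models, so the 7 members were 0.0774% of the genes that could have qualified, with 0.0663% on the warm side and 0.0111% on the cool side. The members were chosen by their measured CPM at the 2 temperatures in all 8 libraries, so the temperature difference is given as a description, without a test.

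White-rot fungi break down lignin together with the cellulose and hemicelluloses of plant cell walls, and T. pubescens grows mainly on deciduous wood. Temperature alters enzyme rates, protein folding and the fluidity of membranes, and fungi are known to adjust chaperones, membrane lipids and protective sugars such as trehalose when it changes. Substrate acts through a different route, since the sugars released from straw or softwood induce or repress the secreted enzymes that digest them. A gene that follows temperature on both substrates is one whose messenger RNA level moves with the first factor over and above the second.

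The fungus was cultured for 21 days at 15 or 25 °C on wheat straw pieces or Norway spruce sticks, with 2 libraries of mycelial RNA in each of the 4 groups. All groups share 1 strain and a liquid preculture, which the protocol places at 25 °C for T. pubescens; the protocol also names only 25 °C for the solid cultures, so the groups follow the titles and treatment labels. Whether the 2 libraries of each group represent different cultures is not stated, so errors and p-values reflect the spread of these libraries alone, which may be technical. The 8 libraries held 10180387 to 13635999 counts, and 12223 to 12327 gene models had at least 1 count. TMM factors were 0.82 to 1.02 on spruce and 1.07 to 1.13 on straw, so a level is relative to most other genes rather than to total RNA.

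The files do not pair gene models with names or functions and no annotation was used here, so each member is given by its JGI number, its scaffold and the number of the model on that scaffold, and no function is stated. Gene lengths were not used either, so CPM values are compared within a gene and not between genes.

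Gene jgi|Trapub1|8716|scaffold_266.15 (gene 8716, model 15 of scaffold 266) had the widest separation among the 6 genes that were higher at 25 °C. Its 2 libraries held 23.8 and 21.3 CPM on straw and 16.2 and 15.3 CPM on spruce at 15 °C, against 43.4 and 95.5 CPM on straw and 140 and 39.6 CPM on spruce at 25 °C. The replicates at 15 °C lay close together, whereas those at 25 °C differed by 2.2-fold on straw and 3.54-fold on spruce, so the level at 25 °C is known only roughly. The log2 fold change from 15 to 25 °C was 1.62 ± 0.54 (SE) on straw and 2.52 ± 0.56 on spruce. The straw value was 0.94 without the second straw library at 25 °C. The spruce value was 1.33 if the higher of the warm spruce libraries was left out and 3.16 if the lower was.

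Gene jgi|Trapub1|1106|scaffold_1110.19 (gene 1106, model 19 of scaffold 1110) was about equally raised on the 2 substrates. At 15 °C its libraries held 128 and 151 CPM on straw and 154 and 159 CPM on spruce, and at 25 °C 236 and 297.5 CPM on straw and 305 and 335 CPM on spruce. The 4 groups were tight, with replicates within 1.26-fold of each other. Its log2 fold changes were 0.93 ± 0.22 on straw and 1.03 ± 0.22 on spruce, a fold of 1.91 and 2.05.

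Gene jgi|Trapub1|2076|scaffold_1241.20 (gene 2076, model 20 of scaffold 1241) was the member with the widest gap between its 2 temperature differences relative to their error. It stood at 92.3 and 93.1 CPM on straw and 67.9 and 67.8 CPM on spruce at 15 °C, and at 163 and 138 CPM on straw and 185 and 237 CPM on spruce at 25 °C. Spruce was thus the lower substrate at 15 °C and the higher one at 25 °C. The log2 fold change was 0.7 ± 0.21 on straw and 1.64 ± 0.22 on spruce, and the second exceeded the first by 0.94 ± 0.30 (SE). This gap was not called in edgeR's quasi-likelihood test (adjusted p = 0.36). The rule chose its members from the same libraries, and this gene was singled out for its gap. That result is therefore not read either way.

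Gene jgi|Trapub1|9437|scaffold_359.2 (gene 9437, model 2 of scaffold 359) had nearly the same level on both substrates. It held 10.7 and 11.7 CPM on straw and 11.6 and 11.1 CPM on spruce at 15 °C, and 18.9 and 20.4 CPM on straw and 21.4 and 16.5 CPM on spruce at 25 °C. Its log2 fold changes of 0.81 ± 0.22 on straw and 0.74 ± 0.22 on spruce differed by less than their error, and it was the only member whose difference was not larger on spruce than on straw; with scaling by library totals these values were 0.84 and 0.88. Gene jgi|Trapub1|7352|scaffold_171.19 (gene 7352, model 19 of scaffold 171) rested on the fewest reads, with 33 to 165 counts per library. It held 6.14 and 6.77 CPM on straw and 3.95 and 5.9 CPM on spruce at 15 °C, and 9.51 and 13.3 CPM on straw and 9.24 and 15.2 CPM on spruce at 25 °C. The fold was 1.77 on straw and 2.45 on spruce (log2 fold changes of 0.82 ± 0.32 and 1.29 ± 0.34).

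Gene jgi|Trapub1|1625|scaffold_1186.20 (gene 1625, model 20 of scaffold 1186) lay nearest to the limit of the rule among the members, with a separation ratio of 1.35. It held 190.5 and 135 CPM on straw and 143 and 196 CPM on spruce at 15 °C, and 270.2 and 265 CPM on straw and 485 and 292 CPM on spruce at 25 °C. One spruce library at 25 °C stood well above the other 3 libraries of that temperature. The log2 fold change was 0.72 ± 0.30 on straw and 1.2 ± 0.31 on spruce, and the spruce value was 0.79 without that library.

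Gene jgi|Trapub1|3949|scaffold_1490.31 (gene 3949, model 31 of scaffold 1490) was the only one higher at 15 °C and had the widest separation of all 7, a ratio of 1.78. Its libraries held 63.1 and 91.6 CPM on straw and 95 and 153 CPM on spruce at 15 °C. At 25 °C they held 32.0 and 24.8 CPM on straw and 14.2 and 35.4 CPM on spruce. The cool libraries were all above the warm ones, although replicates differed by up to 1.61-fold at 15 °C and 2.49-fold at 25 °C. The log2 fold change from 15 to 25 °C was -1.44 ± 0.42 (SE) on straw and -2.32 ± 0.43 on spruce, that is, levels 2.72-fold and 5.01-fold higher in the cool cultures. The spruce value was -3.12 if the higher of the warm spruce libraries was left out and -1.81 if the lower was. It was -1.94 if the higher of the cool spruce libraries was left out and -2.64 if the lower was.

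**Figure D1:**
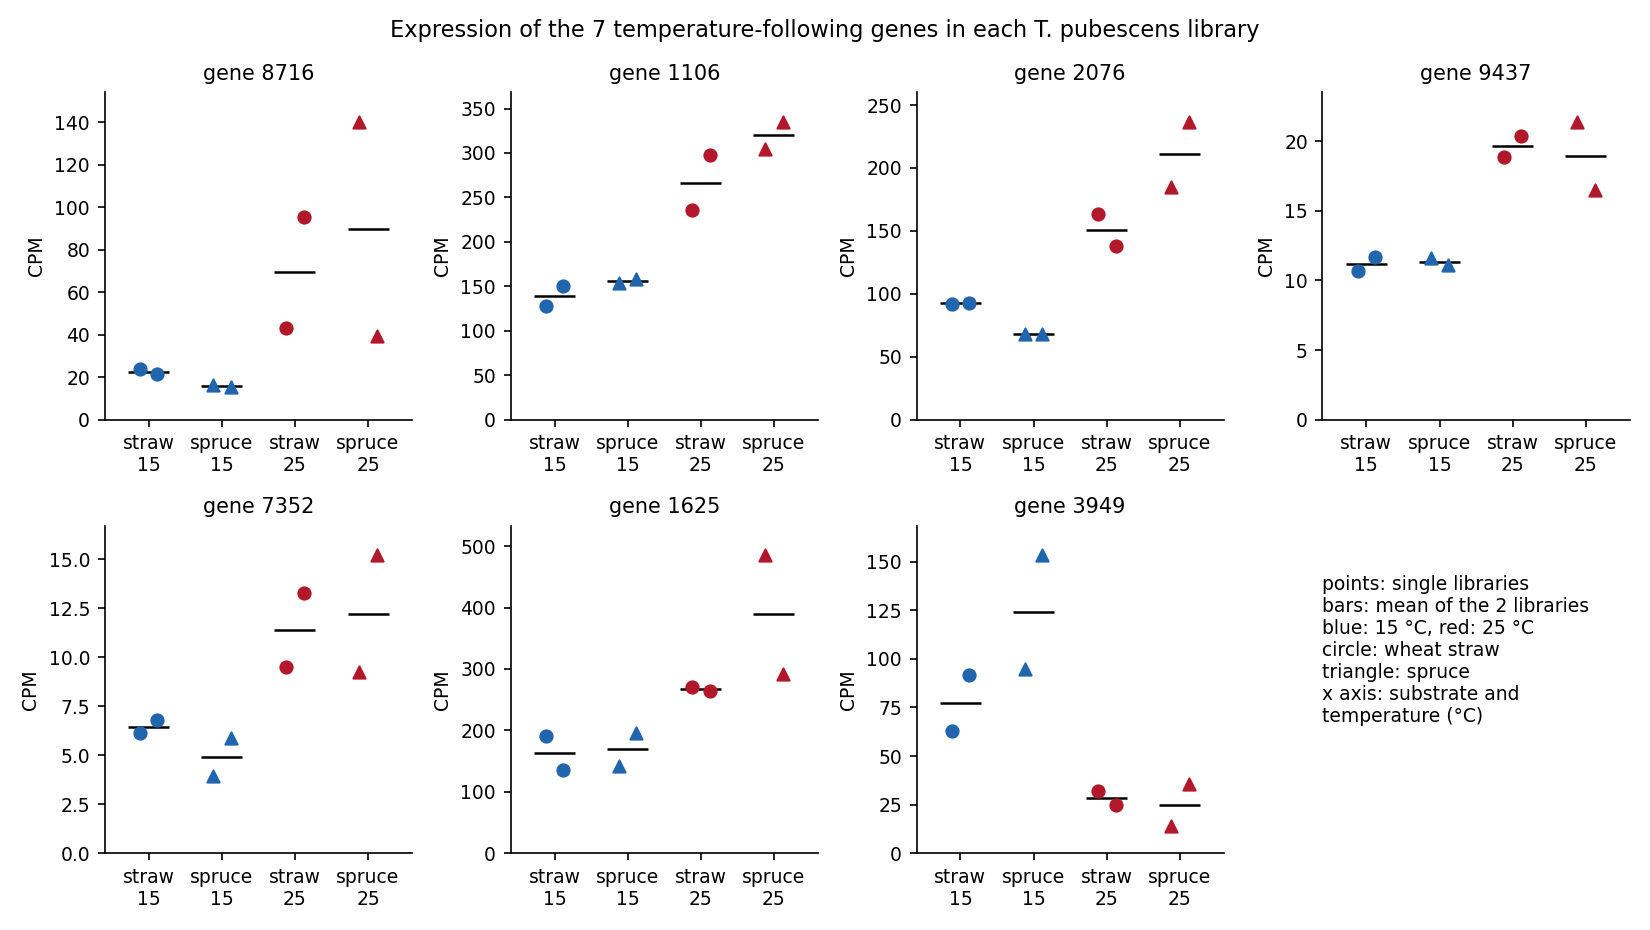
Level of each of the 7 members in CPM (vertical axes, from 0) in the 8 T. pubescens libraries, by substrate and culture temperature in °C; points are single libraries and bars the mean of the 2 libraries of a group. In gene 3949 the 15 °C libraries (63.1 to 153 CPM) lie above the 25 °C libraries (14.2 to 35.4 CPM), and in the other 6 genes the order is the opposite.

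The differences of the 6 warm-high genes were moderate in size. Their median log2 fold change was 0.82 on straw (0.7 to 1.62) and 1.25 on spruce (0.74 to 2.52), beside medians of 0.014 and 0.025 over all 11622 genes tested. The rule itself makes the values of these 6 genes positive, so nothing is read from their distance to these medians. On straw, 47 genes (0.404%) had a log2 fold change at least as high as that of gene 8716, and 411 (3.54%) at least as high as that of gene 2076. On spruce, 45 genes (0.387%) reached the value of gene 8716 and 1026 (8.83%) that of gene 9437. For gene 3949, 82 genes on straw (0.706%) and 15 on spruce (0.129%) lay at or below its value. The members therefore do not hold the highest temperature differences of this fungus. The rule selected genes whose libraries at one temperature all lay above those at the other. It did not ask for tight replicates, which differed by up to 3.54-fold in gene 8716 and 2.49-fold in gene 3949.

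**Figure D2:**
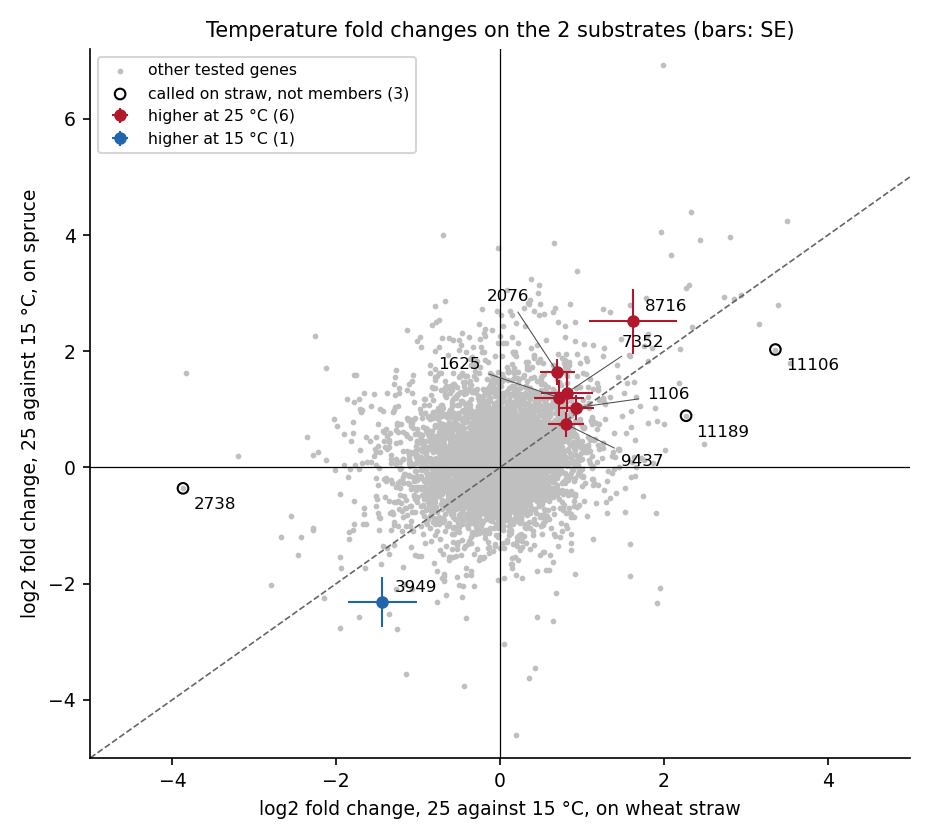
Log2 fold change from 15 to 25 °C on wheat straw (horizontal) and on spruce (vertical) for the 11622 tested T. pubescens genes (grey) and the 7 members (coloured, with SE); the dashed line marks equal values. The 6 warm-high members lie between 0.7 and 1.62 on straw, gene 3949 lies at -1.44, and open circles mark 3 genes called on straw that were not members.

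Depth limited gene 7352 most. Exact Poisson 95% intervals, set on the 2 libraries that bound the gap and so on values the rule itself used, describe counting error only. In gene 7352 these intervals overlapped: the lowest warm library held 113 counts (9.24 CPM, interval 7.62 to 11.1) and the highest cool library 79 counts (6.77 CPM, interval 5.36 to 8.43). In gene 9437, with 179 and 137 counts, the interval of the lowest warm library began at 14.1 CPM and that of the highest cool library ended at 13.9 CPM. Reads are not independent molecules, so the true error is wider. In genes 2076, 9437 and 7352 the highest cool library was the second straw library at 15 °C.

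The number of genes changed steeply just below the limit of the rule and little just above it. With at least 5 CPM, 220 of 9048 genes (2.43%) had no overlap between the temperatures, 118 higher at 25 °C and 102 higher at 15 °C, before genes with outlying spruce libraries at 15 °C were left out. Just inside the limit lay gene 1625, with 265 CPM in its lowest warm library and 196 CPM in its highest cool one. Just outside on the warm side lay gene jgi|Trapub1|8534|scaffold_235.9 (model 9 of scaffold 235), with a ratio of 1.26 and 208 CPM against 165 CPM. On the cool side, gene jgi|Trapub1|1681|scaffold_1188.35 (model 35 of scaffold 1188) missed the limit with a ratio of 1.2999, at 116 CPM against 89.0 CPM. With a ratio of 1.2 the rule gave 18 warm-high and 9 cool-high genes. With 1.35 it still gave 6 and 1, and with 1.5 it gave 1 of each, genes 8716 and 3949.

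**Figure D3:**
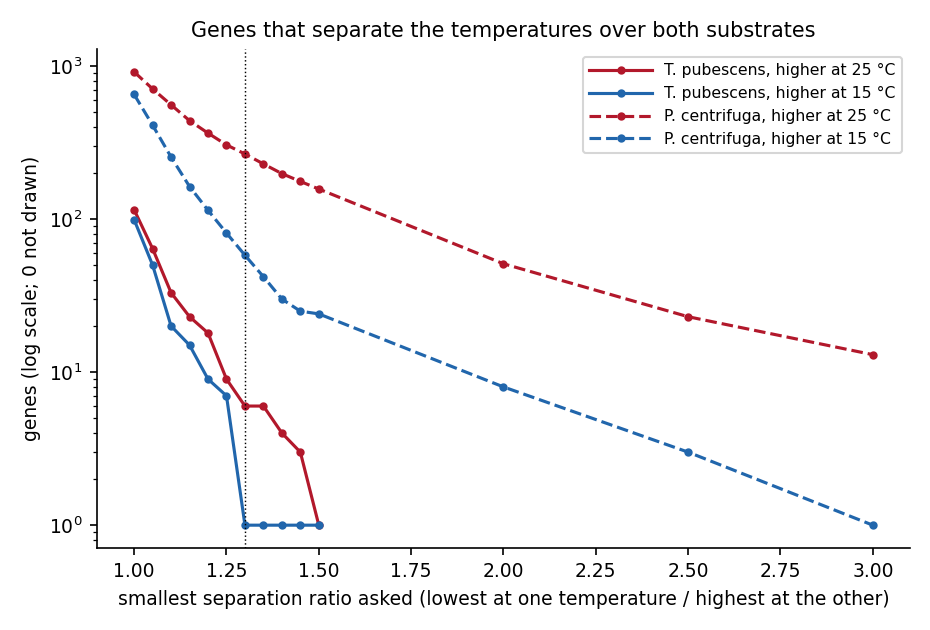
Number of genes (vertical, log scale) that meet the rule as the separation ratio asked for (horizontal) is raised, for T. pubescens (solid) and Phlebia centrifuga (dashed), higher at 25 °C (red) or at 15 °C (blue). At the ratio of 1.3, marked by the dotted line, the numbers are 6 and 1 in T. pubescens and 266 and 58 in P. centrifuga.

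The number of members can be set beside that in the other species and beside that for substrate. In the other fungus of the study, Phlebia centrifuga (strain FBCC195), the same rule gave 266 warm-high and 58 cool-high genes, 3.35% of 9675 with at least 5 CPM. The species share no gene models and differed in the temperature of their preculture, 15 °C for P. centrifuga, so the numbers stand side by side without a test. Within T. pubescens, the same ratio and minimum applied to substrate in place of temperature gave 399 genes higher on spruce and 423 higher on straw, 8.81% of 9328.

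A gene could differ between temperatures on both substrates and still miss the rule when its levels on the substrates lay far apart. Among the 3 genes called on straw the clearest case is number 11106, jgi|Trapub1|11106|scaffold_509.14. It held 108 and 112 CPM on straw and 25.3 and 38.7 CPM on spruce at 15 °C, and 1252 and 1008 CPM on straw and 136 and 125 CPM on spruce at 25 °C. Its log2 fold changes of 3.36 on straw and 2.03 on spruce exceeded those of each warm-high member except gene 8716 on spruce, but its warm spruce libraries barely cleared its cool straw libraries, a ratio of 1.12. Gene jgi|Trapub1|11189|scaffold_520.7 (model 7 of scaffold 520), with log2 fold changes of 2.27 and 0.89, reached a ratio of 1.25.

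When the ratio of 1.3 was asked within each substrate and no longer across both, 49 genes qualified, 18 higher at 25 °C and 31 higher at 15 °C. All 7 members were among them. The split then lay on the cool side, whereas the rule across substrates put 6 of 7 on the warm side. The 42 additional genes fail the rule only across substrates, so a substrate difference is built into their choice: their median absolute log2 difference between spruce and straw at 25 °C was 0.81, beside 0.26 in the members and 0.35 over all genes tested. This setting was chosen after the data were seen.

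The difference between spruce and straw at 25 °C is a contrast that did not choose the members directly, but the rule favours genes that differ little between substrates, so little can be read from it. In edgeR's quasi-likelihood test, 0 of the 7 members were called at an adjusted p below 0.05, beside 7.65% of all 11622 genes. An unadjusted p below 0.05 was found for 1 member, beside 22.8% of all genes, and DESeq2 likewise called 0 members, beside 11.6% of all genes, with 1 at an unadjusted p below 0.05. A count of 0 among 7 genes is near these shares. That gene was 2076, at 211 ± 36 CPM on spruce against 151 ± 18 CPM on straw (SD, n = 2 each; log2 fold change 0.49 ± 0.21 SE, edgeR adjusted p = 0.215). Gene 1625 had the highest estimate, 0.54 with a 95% interval of -0.14 to 1.22 (edgeR adjusted p = 0.327). For gene 9437 the estimate was -0.053, with an interval of -0.54 to 0.44. The intervals of gene 8716 (-0.8 to 1.55) and gene 3949 (-1.14 to 0.74) allow differences of more than 2-fold, so a substrate effect in these genes was not detectable rather than shown to be absent.

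**Figure D4:**
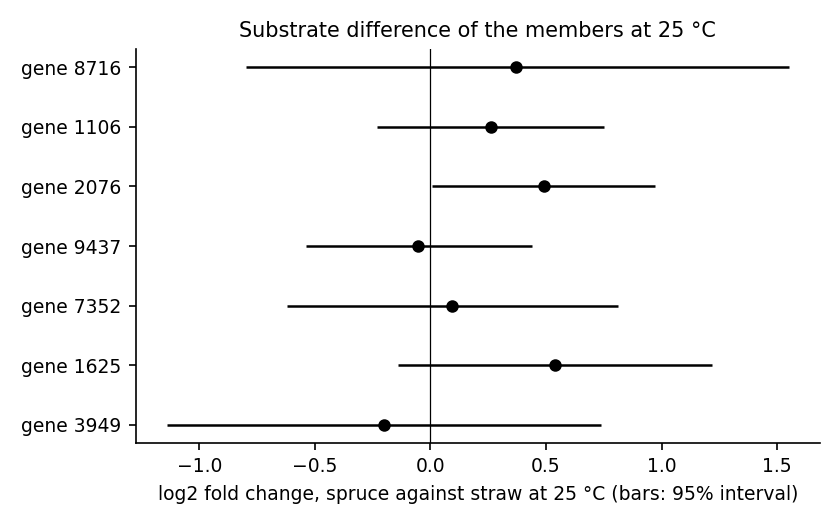
Log2 fold change of spruce against wheat straw at 25 °C (horizontal, points) with its 95% interval (bars) for the 7 members, from the edgeR fit. The intervals include 0 for all members but gene 2076, whose interval starts at 0.0055.

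At 15 °C the estimates between substrates ran from -0.52 in gene 8716 to 0.68 in gene 3949. They are given without a test, because the rule used the spruce libraries at 15 °C to leave genes out. With TMM scaling, 6 of the 7 members had a temperature difference of larger size on spruce than on straw. The gap in log2 units was 0.9 ± 0.75 (SE) in gene 8716, 0.48 ± 0.43 in gene 1625, 0.47 ± 0.46 in gene 7352 and 0.1 ± 0.31 in gene 1106. In gene 3949 it was -0.88 ± 0.58, so its excess in the cool cultures was larger on spruce. Over all 11622 genes tested, log2 fold changes ran from -3.87 to 3.54 on straw and from -4.61 to 6.93 on spruce. The central 95% of genes lay between -0.95 and 0.81 on straw and between -0.88 and 1.35 on spruce. The warm side was thus wider on spruce, whereas the cool side was not. Between temperatures, edgeR called 3 of the tested genes on straw and 73 on spruce. How many of the tested genes had the larger difference on spruce was not counted, so the 6 of 7 is not read as a trait of the members.

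The members were also set beside the genes called between temperatures. On straw, edgeR called 3 genes (0.0258% of 11622), none of them a member, and all 7 members had an unadjusted p below 0.05, beside 6.52% of all genes. On spruce it called 73 genes (0.628%), among them gene 2076, whose log2 fold change was 1.63 without either cool spruce library. Of these 73 genes, 57 had spruce libraries at 15 °C that stood apart by 1.5-fold, so the rule left them out whatever their ratio. For the mean of both substrates edgeR called 40 genes (0.344%), 13 higher and 27 lower at 25 °C, among them genes 1106, 2076 and 3949. These contrasts are the ones the rule used, so nothing is read from the counts. The gene removed because its spruce libraries at 15 °C stood apart, jgi|Trapub1|11794|scaffold_606.8 (model 8 of scaffold 606), held 51.6 and 127 CPM on spruce and 21.1 and 25.8 CPM on straw at 15 °C, against 8.55 to 13.8 CPM at 25 °C.

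The members were scattered over 7 scaffolds, out of 1308 that carry gene models, and no 2 of them were neighbours. Of their 14 immediate neighbours, 12 were tested and 3 had the sign of the member's temperature difference on both substrates. Among all tested genes, 31.5% were higher at 25 °C on both substrates and 26.5% were lower on both. The number of neighbours without overlap between the temperatures was 0. Model 19 of scaffold 1241, next to gene 2076, had a log2 fold change from 15 to 25 °C of -1.99 on straw and 0.71 on spruce, unlike the member. Model 19 of scaffold 1186, next to gene 1625, had the member's sign, at 1.39 on straw and 0.59 on spruce. Its libraries overlapped between the temperatures, with a separation ratio of 0.738, and its difference was larger on straw, unlike the member's.

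Because the rule rests on the lowest and highest values, each library bore on which genes met it. With 1 library left out, 8 to 36 genes were warm-high and 0 to 19 were cool-high. The number of warm-high genes was 36 without the first straw library at 25 °C. Gene 3949 no longer met the rule without the second straw library or the first spruce library at 15 °C. Gene 7352 no longer met it without the second spruce library at 15 °C. In these 3 cases the ratio of 1.3 was still met, and the gene was left out because its remaining spruce values at 15 °C then stood apart by 1.5-fold. Leaving out a library can hardly narrow the ratio of a member, so the return of the others says nothing about their stability. With scaling by library totals alone, 8 warm-high genes qualified and 3 of them were members (genes 1106, 9437 and 1625), while genes 8716 and 2076 met the ratio but were left out by their spruce values at 15 °C.

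**Figure D5:**
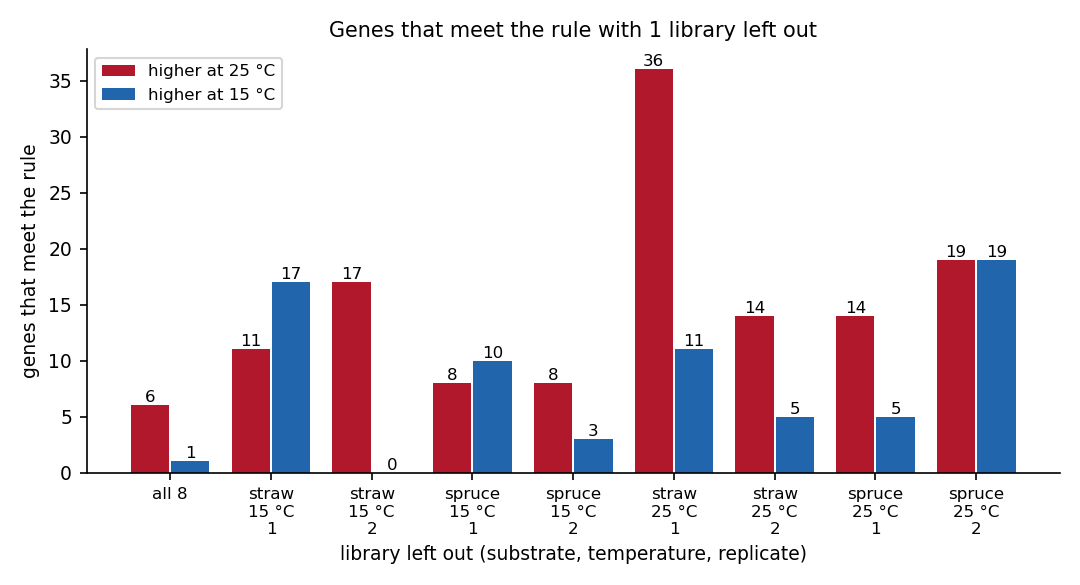
Number of genes that meet the rule (vertical, from 0) with all 8 T. pubescens libraries and with each library left out in turn (horizontal), higher at 25 °C (red) or at 15 °C (blue). The warm-high number ranges from 8 to 36 and the cool-high number from 0 to 19, against 6 and 1 with all libraries.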

How the data were processed

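The authors deposited raw counts per gene model, with 1 library per file, per the file headers. Trimmomatic 0.36 and STAR 2.7.10a were used per the submitters' processing notes; which genome build, annotation and strand setting served is not given in the sources used here. Reads from overlapping, antisense or near-identical models could therefore not be told apart. The members and lists were chosen with earlier results of these data known. Of 14451 gene models, 11622 passed edgeR's filterByExpr and held at least 99.97% of each library's counts. TMM factors from these genes gave the CPM of all models. The 8 T. pubescens libraries were fitted with edgeR 4.0.16 (R 4.3.3; glmQLFit and glmQLFTest, 1 mean per group, 4 residual degrees of freedom), with p-values adjusted by Benjamini-Hochberg over all genes tested and called below 0.05; DESeq2 1.42.0 was an alternative. A standard error is the log2 fold change divided by the square root of F. The fit and the rule were tested on simulated data. The temperature-following genes placed there had a low spread between replicates. That run therefore does not show how well the rule finds genes with the spread of the members. All 7 members were named. The rule for other genes took the nearest ones outside the ratio; the genes called on straw, the gene left out and the neighbours named were chosen after their values were seen. Replicates of a group differed by far more than sampling noise (chi-square per degree of freedom 29.8 to 89.1). Alternatives were other scalings, ratios, minimum levels and filters, a replicate block, a fit of 4 libraries and leaving out each library. No gene lists by function were tested, since no annotation was used here.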

Additional observations from a re-analysis of the deposited data

How the results depend on the processing

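The number of genes depended on the thresholds, the scaling and single libraries. The warm-high number of 6 became 18 with a ratio of 1.2, 1 with a ratio of 1.5, 12 with a minimum of 1 CPM and 18 with the ratio asked within each substrate. It stayed within 1.5-fold under RLE scaling (6), scaling by library totals (8, of which 3 were members), a minimum of 10 CPM (5) and with outlying genes kept (6). The cool-high number of 1 became 4 with RLE scaling, 3 with scaling by library totals, 9 with a ratio of 1.2, 3 with a minimum of 1 CPM, 2 with outlying genes kept and 31 within each substrate. With 1 library left out these numbers ranged from 8 to 36 and from 0 to 19.

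Between spruce and straw at 25 °C, 0 members were called in any setting tried, while 2.61% to 11.6% of all genes were, so 0 of 7 is near the background. Between temperatures on straw, 0 members became 1 with DESeq2 (1.31% of all genes). On spruce, 1 became 6 with DESeq2 (3.93% of all genes), 2 without a filter (0.739%) and 2 with the replicate block (1.4%). It became 0 in a fit of the 4 spruce libraries, which called 0 genes in all. Calls between temperatures also changed with 1 library left out. Such a fit leaves 1 library in a group, so its counts are not compared. Gene 2076 kept a spruce log2 fold change of 1.63 without either spruce library at 15 °C, beside 1.64 with all libraries. The labels give no meaning to a shared replicate number, and replicate differences correlated between groups from -0.19 to 0.44, so the libraries were not treated as paired. The causes of these changes were not tested.

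The temperature log2 fold changes of the members moved by more than the replicate SD in 12 of 154 comparisons with other settings. Their sign was kept in all 154, but nothing is read from this. Most of these comparisons left out 1 library. The rule had already put every library of one temperature above every library of the other, so that step can hardly reverse a sign. The substrate difference at 25 °C, never called, turned its sign to -0.11 in gene 7352 with scaling by library totals. That scaling moved the median of all genes from 0.022 to -0.2 in this contrast and from 0.025 to 0.18 for temperature on spruce. With 1 library left out the substrate difference ranged from -0.81 to 1.05 in gene 8716, from -0.26 to 0.11 in gene 9437, from -0.32 to 0.41 in gene 7352 and from -1 to 0.32 in gene 3949. With 33 counts in 1 library, depth limits gene 7352 most.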

Other observations

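Next to the limit of the rule, both models of a neighbouring pair on scaffold 235 were higher at 25 °C on both substrates. Gene 8534 (model 9) held 119 and 160 CPM on straw and 160 and 165 CPM on spruce at 15 °C, against 217 and 208 CPM on straw and 262 and 270 CPM on spruce at 25 °C. Gene 8533 (model 8) held 18.7 and 22.4 CPM on straw and 16.7 and 25.5 CPM on spruce at 15 °C, against 36.3 and 32.0 CPM on straw and 31.2 and 54.1 CPM on spruce at 25 °C. Their separation ratios were 1.26 and 1.22, and neither had libraries that overlapped between the temperatures. The pair was chosen after its values were seen, and the strand setting of the counting is not known, so reads shared between the models could not be told apart.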
